A study of Mus musculus with 9 samples.

Results

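The genes described here are 9 chemokine receptors carried by leukocytes of the bone marrow: Ccr1, Ccr2, Ccr3, Ccr7, Ccr9, Cxcr2, Cxcr3, Cxcr4 and Cx3cr1. They were taken by gene symbol from an RNA table of 22942 rows, and 9 of 9 symbols were matched. The cells were bone marrow mononuclear cells of B6.SJL (CD45.1) mice. Control cells had received 2 empty retroviral vectors, MSCVneo and MSCVpuro. MLL-AF9 cells had received MSCVneo carrying MLL-AF9, the leukaemia fusion of a histone methyltransferase with AF9, together with the same empty MSCVpuro. The series lists 3 polyA RNA libraries per group, but the table gives 1 pooled value per gene and group in FPKM, a level corrected for transcript length and library size, so the spread between libraries and the read depth are unknown. The labels give neither the age of the animals, nor the time after transduction, nor whether libraries came from separate animals, and any cell that takes up a retroviral vector can express its insert.

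Chemokine receptors are G protein-coupled receptors with 7 membrane-spanning helices. A bound chemokine activates an inhibitory G protein, the cell moves up the chemokine gradient, and receptor kinases and arrestins then switch the receptor off. In the marrow, CXCR4 and its ligand CXCL12 hold stem cells and immature neutrophils in place, whereas CXCR2 draws mature neutrophils out into the blood and CCR2 does the same for monocytes.

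MLL-AF9 cells had lower RNA levels than control cells for 8 of the 9 receptors. The fall passed the authors' test for Cxcr2, Ccr3 and Ccr9, but Ccr9 lay under the minimum mean of 1 FPKM used here. Cxcr2, the receptor of mature neutrophils for CXCL1, CXCL2 and related chemokines, was 16.8-fold lower. Ccr3, the eotaxin receptor of eosinophils, was 21.3-fold lower from a low control level. Cxcr4 and Ccr2 had the highest levels of the set in MLL-AF9 cells and did not pass, and Cx3cr1, the fractalkine receptor of monocytes, was the 1 receptor with a higher value in MLL-AF9 cells, also without passing.

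A gene was called changed where the authors' q-value was under 0.05 and the mean of both groups was at least 1 FPKM. Of the 9 receptors 2 were called lower and 0 higher. The minimum mean was reached by 8 of them. Ccr3, 1 of the 2 called, reached it through its control value alone and so entered the count because it was higher there. Over all 11538 genes tested in the same way, 5.2% were called lower and 5.13% higher. None of the 9 was higher at an unadjusted p under 0.05 in the authors' deposited table either. The median log2 change of the 9 receptors was -1.05, and -1.17 over the 8 that reached the minimum. It is on the scale of log2 of FPKM plus 1 used for all log2 changes here. The median over all tested genes, which all reached the minimum, was 0.29. A lower value in MLL-AF9 cells was seen for 31.3% of all tested genes and for 7 of the 8 receptors that reached the minimum. This scale understates the change of genes with low levels, so fold differences below are ratios of the FPKM values themselves.

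**Figure D1:**
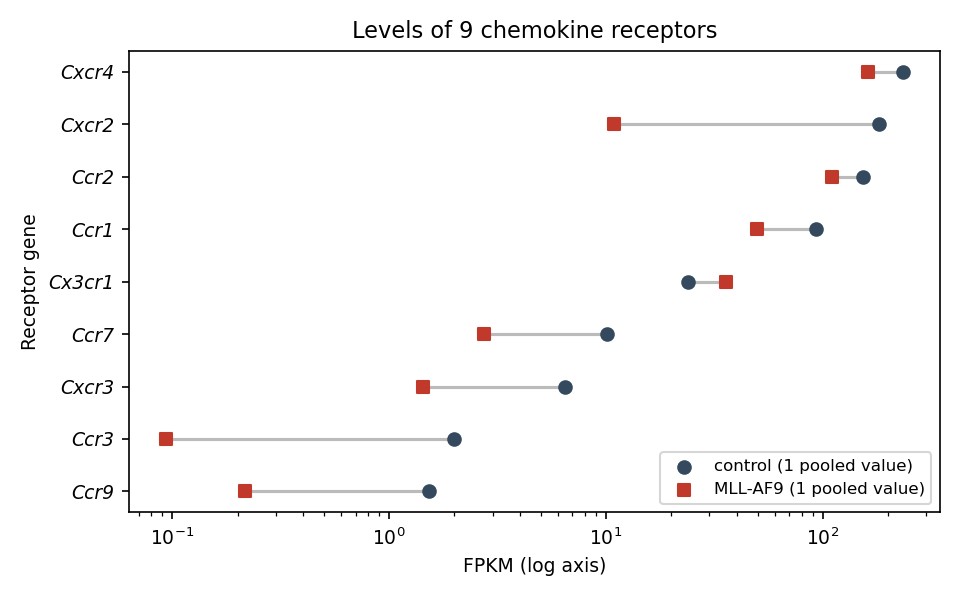
FPKM of each receptor (vertical axis) on a log axis (horizontal), with a dark circle for control and a red square for MLL-AF9 cells, each 1 pooled value without an error. The gap is widest for Cxcr2 and Ccr3, and Cx3cr1 is the 1 gene whose square lies to the right of its circle.

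Cxcr2 had 10.9 FPKM in MLL-AF9 cells against 182 in control cells. It passed with q = 8.74e-10 per the authors' deposited table, and its log2 change was -3.95, or -4.24 relative to the median tested gene. In control cells it was the second of the 9 in level, above 96.8% of all genes with a value above 0, and in MLL-AF9 cells it was the fifth, above 58.2%. Cxcr1, the related receptor next to Cxcr2 in the RefSeq gene order, stood at 0.0346 against 4.74 FPKM and also fell, with q = 0.000208 per the authors' deposited table. Reads shared between these related genes would be split between them in a way that was not tested.

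Ccr3 had 0.0932 FPKM in MLL-AF9 against 1.99 in control cells, with q = 0.000436 per the authors' deposited table. Its log2 change was -1.45. The mean of 1.04 FPKM put it just above the minimum of 1 FPKM. Ccr9, the receptor for CCL25 that is known from thymocytes and plasmacytoid dendritic cells, lay just below it, with a mean of 0.870 FPKM. Ccr9 had 0.216 against 1.52 FPKM, 7.05-fold apart, with q = 0.0213 per the authors' deposited table. Without the minimum, Ccr9 joins Cxcr2 and Ccr3 and 3 of 9 receptors are called lower, against 4.26% of the 17578 rows with a value above 0. With a minimum mean of 5 FPKM, Cxcr2 is the 1 receptor called.

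Ccr7 and Cxcr3 had lower values without passing. Ccr7, which guides lymphocytes and mature dendritic cells to lymph nodes, had 2.73 FPKM in MLL-AF9 against 10.1 in control cells, 3.71-fold apart, with p = 0.0132 and q = 0.0963 per the authors' deposited table. Cxcr3, the receptor of activated T and NK cells for interferon-induced chemokines, stood at 1.43 against 6.47 FPKM, 4.54-fold apart, with p = 0.0128 and q = 0.0941 per the authors' deposited table. Their log2 changes were -1.58 and -1.62. Their q-values lay above that of Ccr9, whose fold difference of 7.05 was larger than theirs. The log2 change of Ccr9, -1.05, was smaller because this scale understates the change of genes with low levels.

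Ccr1, Ccr2 and Cxcr4 had high levels in both groups. Cxcr4 had 161 FPKM in MLL-AF9 against 234 in control cells, with q = 0.643 per the authors' deposited table. Ccr2, the receptor for CCL2 on inflammatory monocytes and their precursors, had 111 against 153 FPKM, with q = 0.717 per the authors' deposited table. Ccr1, which binds CCL3, CCL5, CCL6 and CCL9 on myeloid cells, had 49.8 against 93.5 FPKM, with q = 0.319 per the authors' deposited table. The ratios of control to MLL-AF9 were 1.45 for Cxcr4, 1.38 for Ccr2 and 1.88 for Ccr1, and relative to the median tested gene their log2 changes were -0.83, -0.75 and -1.19. Cxcr4 lay above 96.4% and Ccr2 above 94.6% of all genes with a value above 0 in MLL-AF9 cells.

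Cx3cr1 had 35.8 FPKM in MLL-AF9 against 23.8 in control cells, a ratio of 1.50, with q = 0.567 per the authors' deposited table. Its log2 change was 0.57, or 0.27 relative to the median tested gene. Of all tested genes, 69.6% had a lower log2 change than Cx3cr1.

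**Figure D2:**
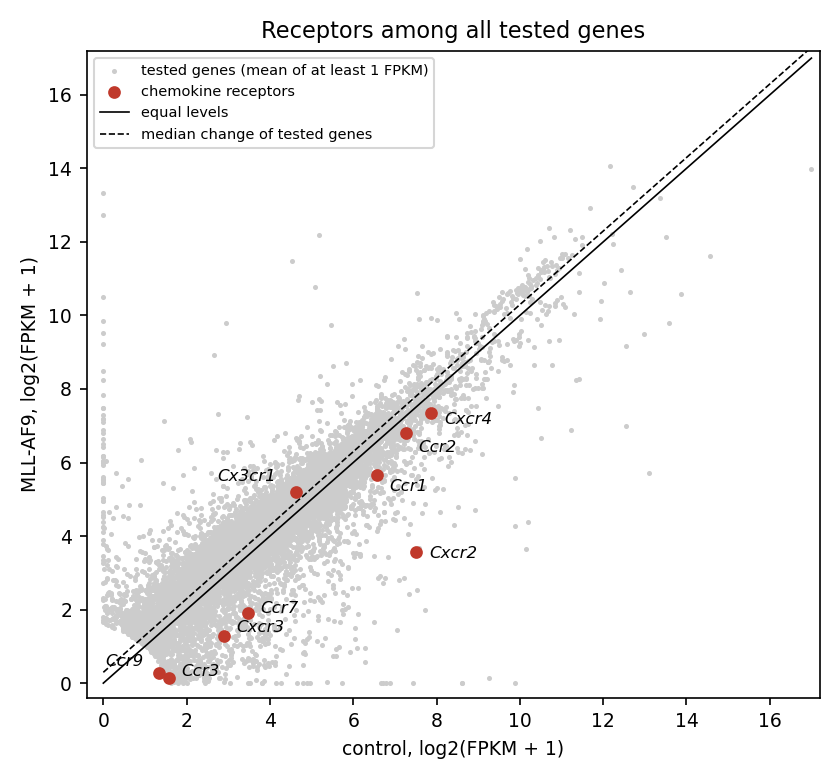
Level of each tested gene in control (horizontal) and MLL-AF9 cells (vertical), both as log2 of FPKM plus 1, with all tested genes in grey and the 9 receptors in red; the solid line marks equal levels and the dashed line the median change of 0.29. Cxcr2 lies farthest below the lines among the receptors, and Cx3cr1 is the 1 receptor above them.

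In order of level, control cells had Cxcr4, Cxcr2, Ccr2, Ccr1, Cx3cr1, Ccr7, Cxcr3, Ccr3 and Ccr9, and MLL-AF9 cells had Cxcr4, Ccr2, Ccr1, Cx3cr1, Cxcr2, Ccr7, Cxcr3, Ccr9 and Ccr3. With 1 value per group it cannot be said which neighbours in these orders differ beyond their spread. The summed level of the 9 receptors was 373 FPKM in MLL-AF9 against 707 in control cells, a ratio of 1.90, or 1.45 without Cxcr2. Cxcr2 made up 25.8% of the control sum and 2.91% of the MLL-AF9 sum. Cxcr4 and Ccr2 together made up 54.7% in control and 72.9% in MLL-AF9 cells, and Cx3cr1 3.37% and 9.59%.

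**Figure D3:**
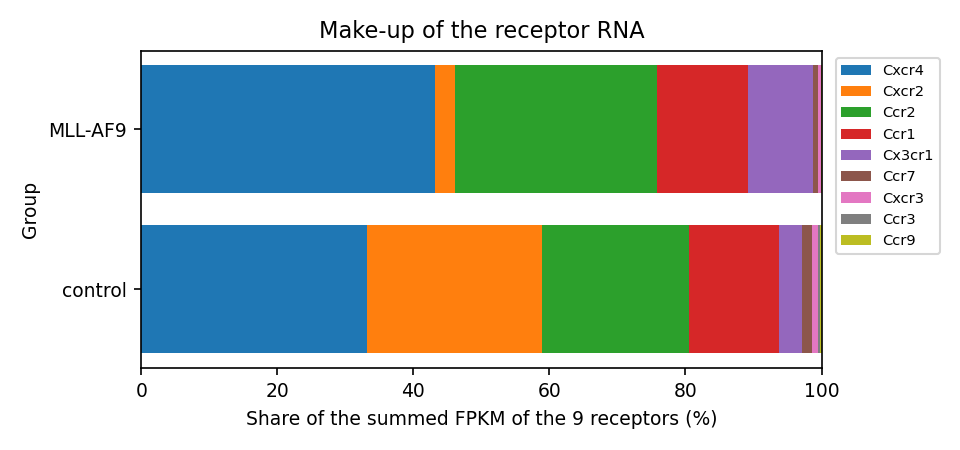
Share of each receptor in the summed FPKM of the 9 (horizontal, percent) in control and MLL-AF9 cells, from 1 pooled value per gene and group. The Cxcr2 segment shrinks from 25.8% to 2.91%, and the Cxcr4 segment is the widest in both bars.

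Promoter windows of Cxcr2 and Ccr3, the receptors called lower, are shown to let their sequence be compared. Beside them are those of Cxcr4 and Cx3cr1, which had the highest level and the higher value in MLL-AF9 cells. RefSeq windows were found for 8 of the 9 receptors, all except Ccr7. Each is the 250 bases before the transcription start in build GRCm38.p6, 5′ to 3′, with CG dinucleotides, the main sites of cytosine methylation, in capitals. The windows lie at chr1:74153744-74153993 on the plus strand, chr9:124021721-124021970 on the plus strand, chr1:128592300-128592549 on the minus strand and chr9:120068297-120068546 on the minus strand. The study's own regions are in mm9 and were not set beside them.
Cxcr2: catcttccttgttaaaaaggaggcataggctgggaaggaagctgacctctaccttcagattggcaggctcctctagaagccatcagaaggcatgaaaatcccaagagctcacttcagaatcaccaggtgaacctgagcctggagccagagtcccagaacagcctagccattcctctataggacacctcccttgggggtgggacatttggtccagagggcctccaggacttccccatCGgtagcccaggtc
Ccr3: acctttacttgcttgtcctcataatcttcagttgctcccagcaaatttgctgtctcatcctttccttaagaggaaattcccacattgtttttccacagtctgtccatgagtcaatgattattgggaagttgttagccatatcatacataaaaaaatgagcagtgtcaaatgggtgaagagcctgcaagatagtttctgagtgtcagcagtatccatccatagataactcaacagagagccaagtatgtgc
Cxcr4: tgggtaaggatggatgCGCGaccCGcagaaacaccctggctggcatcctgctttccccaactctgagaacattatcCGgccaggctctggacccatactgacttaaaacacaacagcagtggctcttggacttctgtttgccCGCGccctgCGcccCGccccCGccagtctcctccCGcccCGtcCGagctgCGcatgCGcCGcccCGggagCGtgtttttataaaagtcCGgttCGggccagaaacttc
Cx3cr1: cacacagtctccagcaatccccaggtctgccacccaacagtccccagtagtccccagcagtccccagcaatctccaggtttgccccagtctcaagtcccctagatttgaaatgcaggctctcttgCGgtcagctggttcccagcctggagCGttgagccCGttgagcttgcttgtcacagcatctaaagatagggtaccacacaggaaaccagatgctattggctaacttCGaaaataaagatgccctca

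The Cxcr4 window stood apart by its CG content. It held 19 CG dinucleotides, more than 80.3% of the 32851 promoter windows in the RefSeq table, whose median was 6. The other matched receptors had few: 0 for Ccr3, 1 each for Ccr1, Ccr2 and Cxcr2, 3 each for Ccr9 and Cxcr3, and 4 for Cx3cr1. A search of both strands for 6 short motifs found TATAAA in the Cxcr4 window 25 to 30 bases before the start, with a second, overlapping match on the other strand, and GGGCGG, the GC box, 3 times. Of all windows 12.4% held TATAAA and 32.7% held GGGCGG. The ETS core GGAAGT, found in 19.7% of windows, matched in the windows of Cxcr2, Ccr3 and Cxcr3. The GATA core AGATAA, found in 9.99% of windows, matched in those of Ccr2 and Ccr3, and for Ccr3 it lay 25 to 30 bases before the start. The RUNX core TGTGGT, found in 14.0% of windows, matched for Ccr1, Cxcr3 and Cx3cr1, and the C/EBP-like TTNNGNAA, found in 36.8%, for Ccr1, Ccr2, Ccr3, Cxcr3 and Cxcr4. No other matches overlapped, and a match is letters in a window and not measured binding.

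Of the 9 receptors 5 lie on chromosome 9, and 4 of these sit in 1 cluster. In RefSeq order the protein-coding genes from the first of these 4 to the last are Ccr9, Fyco1, Cxcr6, Xcr1, Ccr1, Ccr1l1, Ccr3 and Ccr2. Within it Ccr3, called lower, lay between Ccr1l1, at 0.228 against 0.0813 FPKM, and Ccr2, at 111 against 153 FPKM. Fyco1, which links vesicles to microtubules and is no chemokine receptor, was named after its values were seen. It rose from 4.33 to 11.8 FPKM next to Ccr9, with q = 0.0491 per the authors' deposited table. Across the cluster, levels in control cells ran from 0.0813 FPKM for Ccr1l1 to 153 FPKM for Ccr2.

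**Figure D4:**
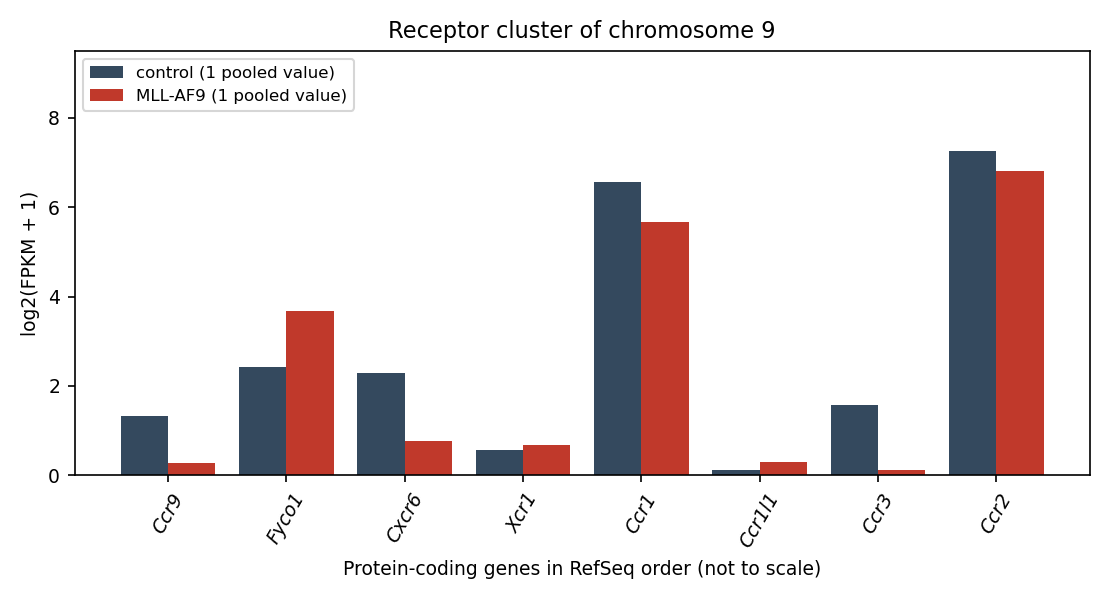
Log2 of FPKM plus 1 (vertical, from 0) for protein-coding genes of the chromosome 9 receptor cluster in RefSeq order, with control in dark blue and MLL-AF9 in red, 1 pooled value each. Ccr1 and Ccr2 are high in both groups, while Ccr9, Cxcr6 and Ccr3 are low and lower still in MLL-AF9 cells.

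The receptors were set beside markers of the cells known to carry them, since in bulk RNA fewer cells of a type and less RNA per cell cannot be told apart. Beside the marker counts below stand the shares over all tested genes, 5.2% called lower and 5.13% higher. The pan-leukocyte markers Ptprc, Cd52, Coro1a, Laptm5, Sfpi1 and Lcp1 summed to 2991 FPKM in MLL-AF9 against 5336 in control cells, with none at 0. Being shared by leukocytes of any tissue, they do not test the bone marrow label. Of these 6, 0 were called in either direction and 1 had p under 0.05 per the authors' deposited table. Stromal and endothelial markers summed to 14.4 and 3.56 FPKM. Of 7 only Pdgfrb reached the minimum, through its MLL-AF9 value alone, and rose, at 12.1 against 0.519 FPKM.

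Neutrophil markers, listed as late, fell along with Cxcr2. Which maturation stage they stand for was not tested. Ngp, at 3162 against 24122 FPKM, and Camp, at 1521 against 14966 FPKM, had the highest levels among them. Of 8 matched markers 7 fell and 0 rose, with a median log2 change of -3.89, and their sum was 5930 FPKM in MLL-AF9 against 64822 in control cells, a ratio of 10.9. The exception was Cd177, at 277 against 922 FPKM and q = 0.172 per the authors' deposited table. Ccr3 fell along with 4 of 6 eosinophil markers, and 0 of the 6 rose. Those that fell include the granule protein gene Prg2, at 46.7 against 238 FPKM, and the ribonuclease genes Ear1 and Ear10. Prg3 had a lower value without passing. Siglec5 had a higher value in MLL-AF9 cells without passing, with a log2 change of 0.18 and q = 0.894 per the authors' deposited table. The 7 matched eosinophil markers summed to 64.4 FPKM in MLL-AF9 against 349 in control cells, a ratio of 5.42, and none was at 0 in either group. The part of neutrophil and eosinophil numbers in the values of Cxcr2 and Ccr3 was not tested.

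Lymphocyte markers fell in the comparison in which Ccr7 and Cxcr3 had lower values. Of 11 T and NK cell markers 11 fell, with a summed level of 25.9 against 190 FPKM, and of 8 B cell markers 7 fell, with 37.6 against 658 FPKM. None of these 19 was at 0 in MLL-AF9 cells, although 9 of the T and NK cell and 5 of the B cell markers reached the minimum through their control values alone. Dendritic cell markers went both ways: of 7 that reached the minimum, Flt3 and Itgax rose and Ciita fell. The rest were not called: Siglech, at 11.6 against 10.9 FPKM, Clec9a and Cd209a had higher values in MLL-AF9 cells and Batf3 a lower one. The 8 matched markers summed to 229 against 49.4 FPKM, and Flt3, a known target of MLL fusions, made up 160 FPKM of the MLL-AF9 sum. The sign of the median of these 7, 0.20, turned to -0.09 on centring to the median gene. Whether lymphocyte or dendritic cell numbers bear on Ccr7, Ccr9 and Cxcr3 was not tested.

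Monocyte and macrophage markers were divided in the same samples in which Ccr2 and Cx3cr1 did not pass. Of 14, 6 fell and 0 rose, with a summed level of 1641 FPKM in MLL-AF9 against 2003 in control cells. The monocyte-associated genes Csf1r, at 82.4 against 81.3 FPKM, and Ly6c2, at 1245 against 1566 FPKM, did not pass, and both are named after their values were seen. Those that fell include the macrophage genes C1qb, C1qc, C1qa and Vcam1 and the Fc receptor gene Fcgr1. By value alone, called or not, 10 of the 14 markers went down and 4 went up. Besides Csf1r, those that went up were Emr1, at 35.3 against 20.7 FPKM, Cd68, at 120 against 87.6 FPKM, and Cd14. Cd14 had 25.3 against 13.2 FPKM, and none of these passed. Fcgr1 and Mrc1, both called lower, and Ms4a7, not called, reached the minimum through their control values alone. Mast cell and basophil markers summed to 409 and 465 FPKM, with 1 of 7 higher and 2 lower. Cpa3 was called higher, at 200 against 31.1 FPKM. Hdc, at 15.8 against 157 FPKM, and Fcer1a, at 1.12 against 27.9 FPKM, were called lower. Erythroid markers summed to 65.6 and 253 FPKM, with 6 of 8 lower. Klf1 and Epor, among those called lower, reached the minimum through their control values alone. Tpsb2 of the mast cell list was at 0 in both groups.

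**Figure D5:**
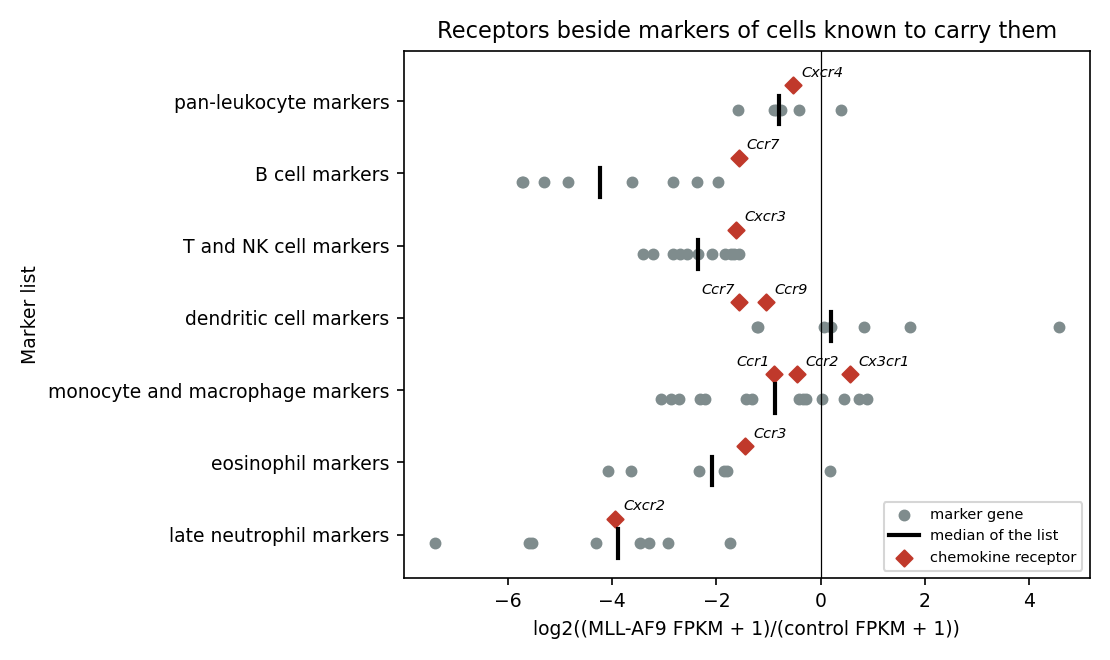
Log2 change of marker genes that reached the minimum mean (grey circles) and of chemokine receptors (red diamonds), by marker list, with the median of each list as a black bar. Cxcr2 lies close to the late neutrophil median of -3.89, whereas Ccr7 and Cxcr3 lie to the right of the B and T cell medians of -4.24 and -2.35. Ccr7 is also drawn beside the dendritic cell markers, where it lies to the left of their median of 0.20.

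Among other chemokine receptors, Cxcr1 and Cxcr5 fell. Of 9 matched, 2 fell and 0 rose, with a median log2 change of -0.25 over all 9. Over the 4 that reached the minimum mean the median was -1.99. On that basis it was -1.17 over 8 of the 9 receptors described first. Of the 4, Cxcr1, Cxcr5 and Cxcr6 reached the minimum through their control values alone. Cxcr5, the receptor that leads B cells into follicles, was at 0.369 against 11.03 FPKM and q = 6.76e-07 per the authors' deposited table. Cxcr6 stood at 0.697 against 3.85 FPKM, whereas Ccrl2, at 2.58 against 1.89 FPKM, had a higher value in MLL-AF9 cells without passing. The 4 atypical receptors, which take up chemokines without G protein signalling, were all under the minimum. Those of highest mean, Darc at 0.233 against 1.10 FPKM and Ccrl1 at 0.234 against 0.188 FPKM, were not called. Ccr6 was not matched.

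Among 12 matched receptors for other chemoattractants 5 fell and 1 rose. Their median log2 change was -0.96 over all 12 and -2.09 over the 8 that reached the minimum. Of these 8, S1pr1 reached it through its control value alone. The formyl peptide receptors Fpr1, at 6.31 against 148 FPKM, and Fpr2, at 81.1 against 410 FPKM, are used by neutrophils to find bacteria. The complement receptor C5ar1 was 11.7-fold lower, at 9.74 against 114 FPKM. Of the sphingosine-1-phosphate receptors, S1pr1, which lets lymphocytes leave tissues, was 39.8-fold lower at 0.371 against 14.8 FPKM, and S1pr4 was 3.80-fold lower at 13.1 against 49.7 FPKM. Gpr183, an oxysterol receptor, rose 3.12-fold to 20.0 FPKM, with q = 0.0397 per the authors' deposited table, and is named as the 1 that rose.

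Of the ligands of the 9 receptors, Ccl3 and Ccl4 rose and Ccl5 and Ccl6 fell. Of 23 matched ligands 11 reached the minimum, 2 rose and 2 fell. Their median log2 change was -0.07 over all 23 and -0.51 over the 11 that reached the minimum. Ccl21a was not matched. Ccl3, which binds CCR1, rose 9.02-fold to 225 FPKM, and Ccl4, its close relative, rose 9.54-fold to 81.2 FPKM. Ccl5, which binds CCR1 and CCR3, fell 13.6-fold to 5.06 FPKM, and Ccl6, a CCR1 ligand, fell 18.9-fold to 25.4 FPKM. Ccl9, also a CCR1 ligand, had 114 against 56.7 FPKM and q = 0.257 per the authors' deposited table. Ligands of Ccr1 thus had calls in both directions, while Ccr1 itself did not pass.

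Among the listed ligands of the other receptors that reached the minimum, Ccl5 was the 1 called. The ligands of Ccr7 and Cx3cr1 could not be called, since Ccl19, at 0.385 against 0.0989 FPKM, and Cx3cl1 lay under the minimum. Cxcl12, the ligand of Cxcr4, had 4.29 FPKM in MLL-AF9 against 8.69 in control cells, with q = 0.315 per the authors' deposited table. Ccl2, the main ligand of Ccr2, stood at 2.48 against 2.71 FPKM, and Ccl25, the ligand of Ccr9, at 1.83 against 1.98 FPKM. Of the Cxcr2 ligands, Cxcl2 had 7.05 against 10.5 FPKM and Cxcl1 was listed at 0 in both groups. Cx3cl1, the ligand of Cx3cr1, was at 0.108 against 0.0434 FPKM.

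The genes that act below the receptors had few calls, as had all tested genes, of which 5.2% were called lower and 5.13% higher. Of 17 G protein and effector genes, 0 were called and 0 had p under 0.05 per the authors' deposited table, against 19.8% of all tested genes, with a median log2 change of -0.06. Gnai2, the main inhibitory G protein subunit of leukocytes, was listed at 424 against 600 FPKM, and Rac2, a GTPase of leukocyte movement, at 340 against 497 FPKM. Of 13 matched genes that switch receptors off 12 reached the minimum, 1 fell and 0 rose, a share near that of all tested genes, with a median of -0.38 over all 13. The 1 that fell was Arrb2, which encodes an arrestin, at 107 against 365 FPKM, 3.40-fold lower with q = 0.0228 per the authors' deposited table. The regulator Rgs1, named after its values were seen, had 14.5 against 4.06 FPKM, p = 0.0164 and q = 0.112 per the authors' deposited table.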

How the data were processed

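PolyA RNA of 3 MLL-AF9 and 3 control samples was described by the submitters. The submitters' processing notes name TopHat 1.4.1, Cufflinks 1.3.0, Bowtie 0.17.2 and CASAVA 1.8.2 with mm9, but no role or setting. The deposited RNA table was taken as FPKM made by the authors, 1 value per group, since its header names no unit. The deposited p-value and q-value are the authors' own, from a test not stated in the header. The labels speak of duplicates for RNA, so the values may not rest on all 3 libraries. No test was computed anew, so the planned use of the authors' q-value applied. S100a9 was not counted, being listed at 0 in control and 10526 FPKM in MLL-AF9 cells, taken as a failed estimate.

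The 9 receptors and the gene lists were chosen with earlier results of these data known. The 17 lists hold 181 entries, of which 172 were matched, 6 by an older symbol; 1 further receptor is not reported here. Named genes are the receptors and up to 5 called genes per list by q-value, or the 2 of highest mean where none is called. Other genes were named after their values were seen. A q-value of 1 stands beside p under 0.05 in 397 rows, so low genes may not have been tested. The 5hmC region lists and the input were not used here, because gene positions in mm9 were not at hand. Promoter windows are from RefSeq. Python 3.11.15, numpy 2.4.6, pandas 2.3.3, scipy 1.17.1 and matplotlib 3.10.9 were used, and the adjustment and scaling steps were tested on simulated data.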

Additional observations from a re-analysis of the deposited data

How the results depend on the processing

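Of the calling rules tried, those with the authors' q-value under 0.01, with the authors' p-values adjusted anew by Benjamini-Hochberg over tested genes or over all rows above 0, or with an added 2-fold minimum called 2 receptors, Cxcr2 and Ccr3. Without a minimum level, or requiring 1 FPKM in either group, 3 were called, and with a minimum mean of 5 FPKM 1 was. The median log2 change of the receptors was -1.85 with a pseudocount of 0.1 and between -1.50 and -1.12 under the pseudocount of 0.5, quantile normalization, centring, scaling to the sum without the 50 highest genes of either group, and the 8 receptors above the minimum. Of 45 values for single receptors under these scalings and pseudocounts, 42 moved by less than 1.5-fold. The other 3 belong to Ccr3 and Ccr9, which rest on levels under 2 FPKM, and none changed sign. Leaving out a library was not possible, because the table holds pooled values. Unknown depth limits most the low levels of Ccr3 and Ccr9.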

Other observations

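The ligand genes with calls are neighbours. In RefSeq order, Ccl5, Ccl9, Ccl6, Ccl3 and Ccl4 are consecutive protein-coding genes on chromosome 11. In this order the log2 changes were -3.52, 0.99, -4.19, 3.12 and 3.11. Ccl5 and Ccl6 fell, Ccl3 and Ccl4 rose, and Ccl9, which lies between both that fell, had a higher value in MLL-AF9 cells without passing (q = 0.257 per the authors' deposited table). All values are from 1 pooled value per group.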
